A study of Mus musculus with 6 samples.

Results

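The genes described here are those whose symbol in the deposited count table starts with Spata (spermatogenesis associated) or Tex (testis expressed) followed by a digit. The name pattern matched 81 symbols. The rule left out 5 of them (Spata16, Spata22, Tex11, Tex12 and Tex101) and required a summed count of at least 60 over the 6 libraries, which a further 41 symbols did not reach; 9 of these 41 had a count of 0 in every library. That left 35 genes, 18 Spata and 17 Tex, out of 50763 symbols in the table. The rule uses names and summed counts, not the difference between genotypes. Just inside the threshold lay Tex26, Spata45 and Spata31g1 with summed counts of 67, 65 and 64, and just outside it lay Spata18, Spata31h1 and Tex28 with 57, 47 and 45.

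The samples were testes of mice at postnatal day 14. The 3 wild-type samples (WT) were compared with 3 samples whose genotype is labelled sKO and in which, per the series title, Rif1 was conditionally knocked out in pre-meiotic germ cells. RIF1 is a chromatin protein that times DNA replication and steers the repair of broken DNA. The sources used here do not give the Cre line, strain, deleted exons or any pooling of animals. They also do not state whether each library is a different animal, and the p-values then reflect library spread that could be technical. Polyadenylated RNA of the whole testis was sequenced, so fewer germ cells of a stage and less RNA per cell cannot be told apart.

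Spata and Tex are naming series and not a pathway: the names record that a transcript was first noticed in testis or in a study of sperm formation. The proteins behind them differ widely. TEX14 builds the intercellular bridges that join dividing germ cells, TEX15 guides DNA methylation onto transposons, and several SPATA proteins are built into the head, neck or tail of sperm, while SPATA2 and TEX10 work in cells of many tissues. The genes are therefore given in classes by what their products are known to do. In mice of this age the first wave of germ cells is passing through meiotic prophase, and later stages are few.

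Library totals ranged from 15941672 to 18296594 counts, and 3 counts corresponded to 0.165 to 0.187 CPM (the usual unit of counts scaled to library size), the limit that a count of 0 allows for counting error alone. Rif1, the targeted gene, stood at 96.5, 83.7 and 129 CPM in the WT libraries and at 41.98, 46.4 and 49.2 CPM in the sKO libraries (an edgeR log2 fold change of -1.17 with SE 0.15 and adjusted p = 0.0145). On the first principal component of all genes, which held 53.1% of the variance, WT library 1 lay farthest from sKO and sKO library 3 lay closest to WT. Of 8 markers of pachytene spermatocytes 7 were tested and 4 were called lower by edgeR (Acr, Tekt1, Nme5 and Ybx2), and their summed level was 568 to 1202 CPM in WT and 191 to 343 CPM in sKO. The 8 Sertoli cell markers summed to 1793 to 1963 CPM in WT and 2083 to 2274 CPM in sKO, and the 8 spermatogonia markers to 651 to 784 and 751 to 777 CPM. The 5 markers of early meiotic prophase summed to 462 to 757 CPM in WT against 355 to 575 CPM in sKO, and 1 was called lower. The 6 Leydig cell markers summed to 189 to 283 against 286 to 416 CPM, the 5 markers of peritubular myoid cells to 614 to 784 against 689 to 1101 CPM, and the 6 macrophage markers to 74.2 to 92.6 against 76.4 to 114 CPM, with 0 called in each list. No marker in these lists was at 0 in all libraries. Tnp1 and Prm1, defining genes of later spermatids, averaged 0.235 and 0.0954 CPM in WT and 0.287 and 0.133 CPM in sKO, at or near the level of 3 counts, and of the 8 spermatid markers 3 were tested and Actl7b was called lower. The 6 epididymis markers summed to 156 CPM in sKO library 1 and to between 1.48 and 18.4 CPM in the other 5.

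The comparison asked whether the level of these genes in the juvenile testis differs between sKO and WT. None of the Spata- and Tex-named genes passed the test over all genes. Of the 35, 33 passed the filter on low counts, and edgeR called 0 of them lower and 0 higher at an adjusted p under 0.05, where it called 1.27% of all 18860 genes tested lower and 0.0318% higher. At an unadjusted p under 0.05, 8 of the 33 had lower levels in sKO, a larger share than the 8.54% of all genes tested. Higher levels at that p were found for 0 of the 33, against 5.06% of all genes. These differences in shares were not tested. By adjusted p, DESeq2 called 4 of the 35 genes lower (Spata33, Spata24, Spata4 and Tex22), where it called 3.44% of the 20797 genes to which it gave an adjusted p. Limma-voom called 0 of them lower and 0.0795% of all genes tested. Estimates ranged from -3.31 to 0.42 (log2 fold change), with 21 below 0 and 12 above. Their median was -0.08, and that of all genes tested was 0.03.

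Estimates within 0.25 log2 units of 0 were found for 16 of the 33 (48.5%), compared with 67.2% of all genes tested. Below -1 lay 2 of the 33 (6.06%), Spata4 and Spata31d1a, compared with 3.52% of all genes. The sKO libraries all lay under the WT libraries for 5 tested genes (Spata4, Spata33, Spata24, Tex9 and Tex14), and all lay above them for Spata13; among all genes tested these shares were 10.7% and 9.58%. With fewer libraries more of all genes separate. The 5 lower genes (15.2% of the 33) became 8 (24.2%) without WT library 3 and 12 (36.4%) without sKO library 3. Among all genes the share became 14.9% and 20.8%. Without WT library 1 they became 6 (18.2%), against 13.3% of all genes. Without WT library 2, sKO library 1 or sKO library 2 the count stayed at 5, against 15.5%, 15.0% and 12.9% of all genes.

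**Figure D1:**
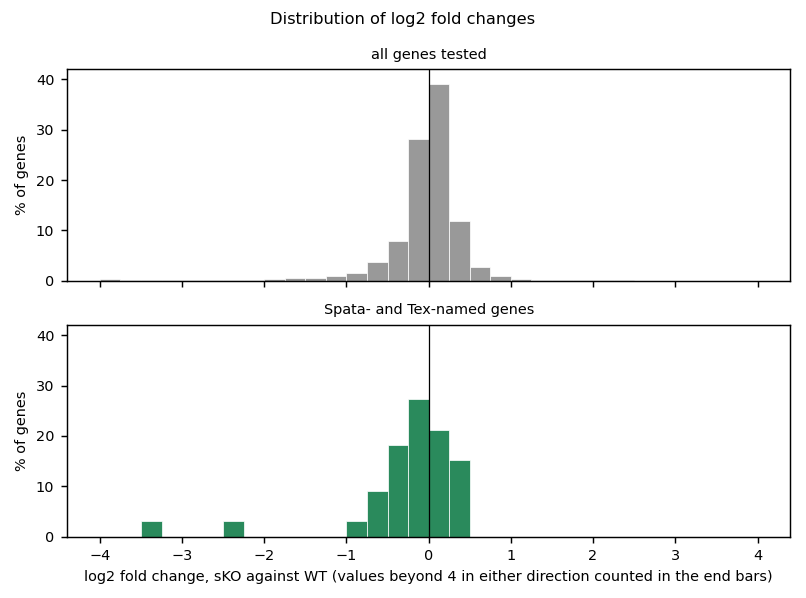
Share of genes (%) in steps of 0.25 log2 units of the fold change of sKO against WT, for all 18860 genes tested (top) and for the 33 tested Spata- and Tex-named genes (bottom). Both are centred near 0 (medians 0.03 and -0.08), and 2 named genes lie below -1.

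**Figure D2:**
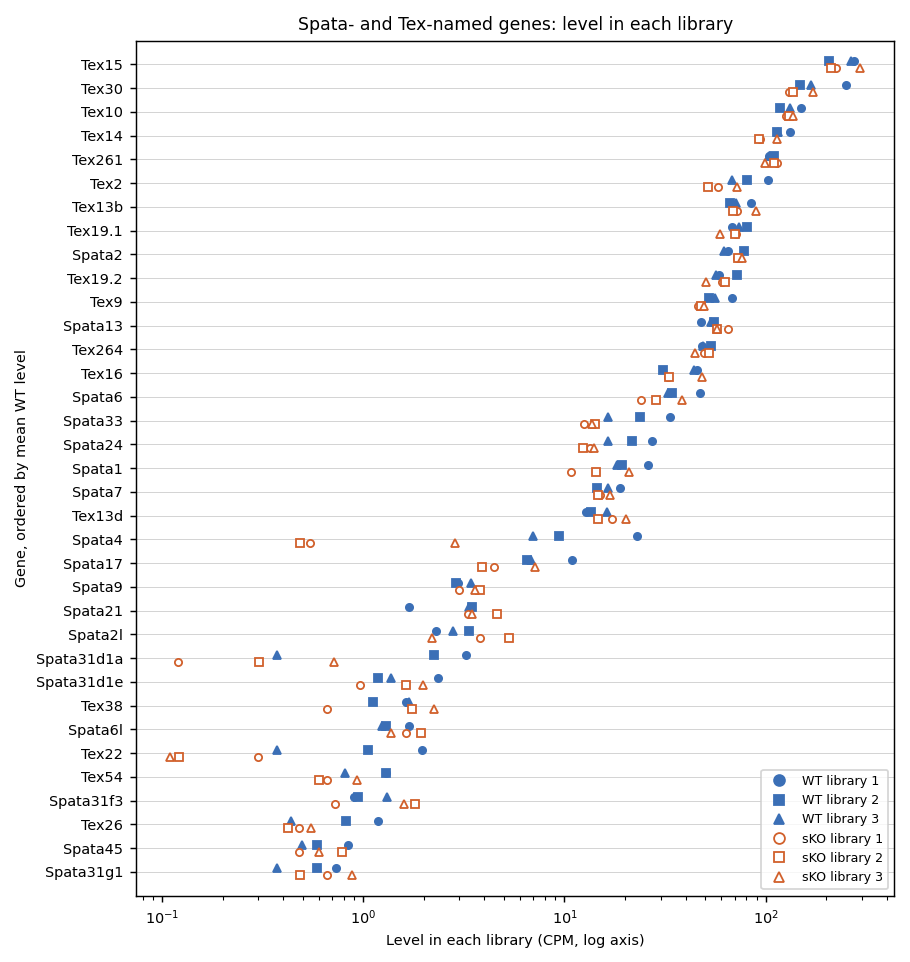
Level of each of the 35 genes in each library (CPM, log axis), genes ordered by mean WT level; filled symbols are WT and open symbols sKO libraries. Spata4 is the gene whose groups lie farthest apart, with WT from 6.96 to 22.9 CPM and sKO from 0.484 to 2.86 CPM.

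The class of spermatid and sperm genes held the widest differences. It had 14 members, of which 13 were tested, 8 had estimates below 0, 4 were lower at an unadjusted p under 0.05 and 0 were called, with a median of -0.10. Summed over the class, the WT libraries stood at 131, 87.7 and 74.4 CPM and the sKO libraries at 50.9, 60.9 and 76.1 CPM, so that sKO library 3 lay above WT library 3 (exact two-sided permutation p = 0.2, where 0.1 is the smallest that 3 against 3 allows). Within each group the sum of this class followed the order of the pachytene markers, which were highest in WT library 1 (1202 CPM) and sKO library 3 (343 CPM). The part of these markers in the differences was not tested. That pair of libraries also held the highest sums of the other classes, such as the broadly acting genes (884 and 740 CPM), and of the early prophase markers (757 and 575 CPM). Single members could differ, and Spata21 was lowest in WT library 1 among the WT libraries.

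Spata4, a testis gene coding for a protein with a calponin homology-like domain, had the lowest estimate of the 33 tested members. Its level was 22.9, 9.37 and 6.96 CPM in WT libraries 1 to 3 and 0.541, 0.484 and 2.86 CPM in sKO libraries 1 to 3. The groups did not overlap, but both were uneven, with WT library 1 standing 3.29-fold above WT library 3 and sKO library 3 standing 5.58-fold above the mean of the other sKO libraries. The means were 13.1 ± 8.61 and 1.29 ± 1.36 CPM (SD, n = 3 each). The log2 fold change was -3.31 (SE 0.80, 95% interval -5.28 to -1.33), which did not pass the test (edgeR adjusted p = 0.148; DESeq2 adjusted p = 0.0153). Without sKO library 3 the estimate was -4.69 and was called (edgeR adjusted p = 0.0236), and without WT library 1 it was -2.63 (edgeR adjusted p = 0.3004).

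Spata33, whose product tethers the phosphatase calcineurin to sperm mitochondria and so serves sperm motility, had 33.3, 23.9 and 16.5 CPM in WT and 12.4, 14.2 and 13.6 CPM in sKO. All sKO libraries lay within a narrow band under the lowest WT library, and the WT libraries differed 2.01-fold among themselves. The log2 fold change was -0.87 (SE 0.22, 95% interval -1.36 to -0.39, edgeR adjusted p = 0.0878; DESeq2 adjusted p = 0.00488). It was called without WT library 3 (-1.09, edgeR adjusted p = 0.0144) and stood at -0.59 without WT library 1 (edgeR adjusted p = 0.219). The partners of SPATA33 in sperm, the calcineurin subunits Ppp3cc and Ppp3r2, had log2 fold changes of -0.29 and -1.57 (edgeR adjusted p = 0.332 and 0.247). Ppp3r2 was read from few counts, 48, 38 and 7 in WT and 7, 11 and 13 in sKO, and the groups of both genes overlapped. The calcineurin subunits of other tissues, Ppp3ca, Ppp3cb and Ppp3r1, had 0.11, 0.03 and 0.20.

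Spata31d1a, a member of a large family of similar testis genes among which reads can be shared, was read from few counts: 58, 38 and 6 in WT and 2, 5 and 13 in sKO. WT library 3 lay below sKO library 3, so the groups overlapped, and the estimate of -2.33 (SE 0.76, 95% interval -4.04 to -0.62) had an edgeR adjusted p of 0.204. It was called without WT library 3 (-2.81, edgeR adjusted p = 0.0276) and stood at -1.75 without WT library 1 (edgeR adjusted p = 0.468) and at -1.36 without both libraries numbered 1 (edgeR adjusted p = 0.683). DESeq2 gave an adjusted p of 0.0508. Its tested relatives gave no such estimate, and further relatives under the summed count of 60 were not tested. Spata31d1e, Spata31g1 and Spata31f3 had log2 fold changes of -0.10, 0.26 and 0.40 on 163, 64 and 124 summed counts, and each of their 95% intervals held 0.

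Tex22, which codes for a protein of the acrosome and tail region of sperm, did not pass the filter on low counts and has no edgeR value. Its counts were 35, 18 and 6 in WT and 5, 2 and 2 in sKO. The groups did not overlap, though WT library 3 and sKO library 1 differed by 1 count, and DESeq2, which tests it, gave a log2 fold change of -2.71 (adjusted p = 0.0449).

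The promoters of 5 members with low estimates are shown, chosen because their windows hold a match to one of the short motifs searched. The windows of Spata17 and Tex2, whose estimates were also low, held no match, and Spata24 and Tex54 were not among the genes with a window. Nor were Spata1, Tex30 and Spata6 among the genes with a match. Their estimates of -0.46, -0.38 and -0.33 were lower than those of Tex9 and Tex14, which are shown (-0.30 and -0.27). The windows cover 250 bases before to 50 bases after a gene's start in RefSeq (build GRCm38.p6, not the build of the counts) and were found for 26 of the 35 genes. Capitals mark GTTGCC or its reverse complement GGCAAC, one arm of the X-box that RFX factors bind, and, in Tex14, CAGTTG, the reverse complement of the MYB core CAACTG. Each is printed on the gene's own strand.
Spata4: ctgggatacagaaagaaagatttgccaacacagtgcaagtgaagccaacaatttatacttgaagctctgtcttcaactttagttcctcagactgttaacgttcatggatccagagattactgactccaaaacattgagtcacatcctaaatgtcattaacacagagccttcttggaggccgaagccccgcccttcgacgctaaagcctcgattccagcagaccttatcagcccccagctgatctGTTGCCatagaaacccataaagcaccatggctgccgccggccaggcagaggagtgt
Spata33: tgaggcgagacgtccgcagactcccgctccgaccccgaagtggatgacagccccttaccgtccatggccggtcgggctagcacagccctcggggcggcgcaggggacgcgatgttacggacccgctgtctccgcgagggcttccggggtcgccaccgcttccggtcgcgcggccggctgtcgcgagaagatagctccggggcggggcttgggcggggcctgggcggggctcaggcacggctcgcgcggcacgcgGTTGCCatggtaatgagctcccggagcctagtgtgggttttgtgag
Spata31d1a: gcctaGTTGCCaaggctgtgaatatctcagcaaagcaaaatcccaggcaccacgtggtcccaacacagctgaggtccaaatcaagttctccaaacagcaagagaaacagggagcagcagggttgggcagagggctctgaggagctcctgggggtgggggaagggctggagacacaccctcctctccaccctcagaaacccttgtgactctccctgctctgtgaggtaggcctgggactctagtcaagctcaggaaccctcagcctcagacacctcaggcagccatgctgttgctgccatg
Tex9: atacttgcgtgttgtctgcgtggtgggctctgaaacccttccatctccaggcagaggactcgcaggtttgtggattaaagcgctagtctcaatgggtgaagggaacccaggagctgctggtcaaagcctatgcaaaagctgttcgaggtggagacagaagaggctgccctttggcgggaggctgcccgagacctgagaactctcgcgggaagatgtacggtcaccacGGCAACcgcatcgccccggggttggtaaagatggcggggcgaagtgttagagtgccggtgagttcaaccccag
Tex14: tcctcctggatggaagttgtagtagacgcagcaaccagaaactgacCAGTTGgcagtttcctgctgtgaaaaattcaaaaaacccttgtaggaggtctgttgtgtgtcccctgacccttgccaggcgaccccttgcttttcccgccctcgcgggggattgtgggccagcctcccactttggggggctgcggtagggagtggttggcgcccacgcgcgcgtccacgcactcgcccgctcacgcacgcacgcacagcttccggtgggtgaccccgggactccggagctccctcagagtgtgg

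These windows lie at chr8:54600531-54600830 (plus strand) for Spata4, chr8:123212608-123212907 (plus) for Spata33, chr13:59706148-59706447 (minus) for Spata31d1a, chr9:72491910-72492209 (minus) for Tex9 and chr11:87404815-87405114 (plus) for Tex14. The X-box arm starts 6 bases before the start site in Spata4, 4 bases after it in Spata33, 23 bases before it in Tex9 and 245 bases before it in Spata31d1a. Searched on both strands, it was found for 6 of the 26 genes (23.1%), the other two being Spata45 and Tex19.2, against 14.1% of all genes with a window (12.5% of all windows). Spata45 and Tex19.2, with the same letters, had estimates of -0.05 and -0.10. CAACTG was found for 3 of 26 genes (Tex14, Tex19.2 and Tex38). That is 11.5%, a smaller share than the 15.4% of all genes with a window (13.7% of windows). The CRE palindrome TGACGTCA was found for 1 (Spata7, 3.85%), against 2.03% of genes (1.79% of windows). The X-box arm and the MYB core can share letters, since GTTG is in both GTTGCC and CAGTTG. A match describes these letters and shows no binding.

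Other members of the sperm class lay closer together. Spata17, which codes for a calmodulin-binding IQ motif protein, had 10.9, 6.54 and 6.78 CPM in WT and 4.44, 3.88 and 7.15 CPM in sKO (log2 fold change -0.64, 95% interval -1.26 to -0.03, edgeR adjusted p = 0.343). The overlap came from sKO library 3, which exceeded the lower pair of WT libraries. Spata6, needed to form the connecting piece between sperm head and tail, had 47.3, 34.1 and 32.8 CPM in WT and 24.0, 28.3 and 38.5 CPM in sKO (log2 fold change -0.33, 95% interval -0.75 to 0.10, edgeR adjusted p = 0.501). Its paralog Spata6l stood at 1.41 ± 0.24 and 1.64 ± 0.282 CPM (SD, n = 3 each), with an estimate on the other side of 0 (0.22, 95% interval -0.45 to 0.88).

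The remaining members of the class had few reads. Tex54 had an estimate of -0.62 on 96 summed counts (edgeR adjusted p = 0.513). Spata45, Tex38 (whose product works with the palmitoyltransferase ZDHHC19 in spermatids) and Spata21, a gene for an EF-hand protein, had log2 fold changes of -0.05, 0.08 and 0.42, with 95% intervals from -0.97 to 0.87, -0.84 to 1.01 and -0.24 to 1.08. Those intervals leave differences of either sign possible. Zdhhc19 itself averaged 0.0415 CPM in WT and was listed at 0 in all sKO libraries, under the level of 3 counts.

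Known partners of the sperm proteins gave a mixed picture. In the list of the head to tail coupling apparatus, in which SPATA6 acts, all 5 tested of 8 genes had estimates below 0 (median -0.27) and 0 were called. Among them Cntrob, a centriole protein, averaged 72.6 ± 6.46 CPM in WT against 52.2 ± 7.21 CPM in sKO (SD, n = 3 each; log2 fold change -0.47, edgeR adjusted p = 0.0895), and Spatc1l had a log2 fold change of -1.15 (edgeR adjusted p = 0.226). In the mitochondrial sheath list Gk2 and Gykl1, germ cell glycerol kinase genes similar to each other, had estimates of -2.71 and -3.26 (edgeR adjusted p = 0.0515 and 0.0511). Vdac3 and Slc25a31, mitochondrial transport proteins of the same list, had 0.11 and -0.06. Over all 42 tested partner genes of the lists used here edgeR called 0 lower and 0 higher, while 8 lower and 0 higher ones reached an unadjusted p under 0.05, as did 8.54% and 5.06% of all genes tested. Of these partners DESeq2 called 4 lower (Cntrob, Gk2, Gykl1 and Mael) and limma-voom called 0, beside the 3.44% and 0.0795% of all genes given above.

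**Figure D3:**
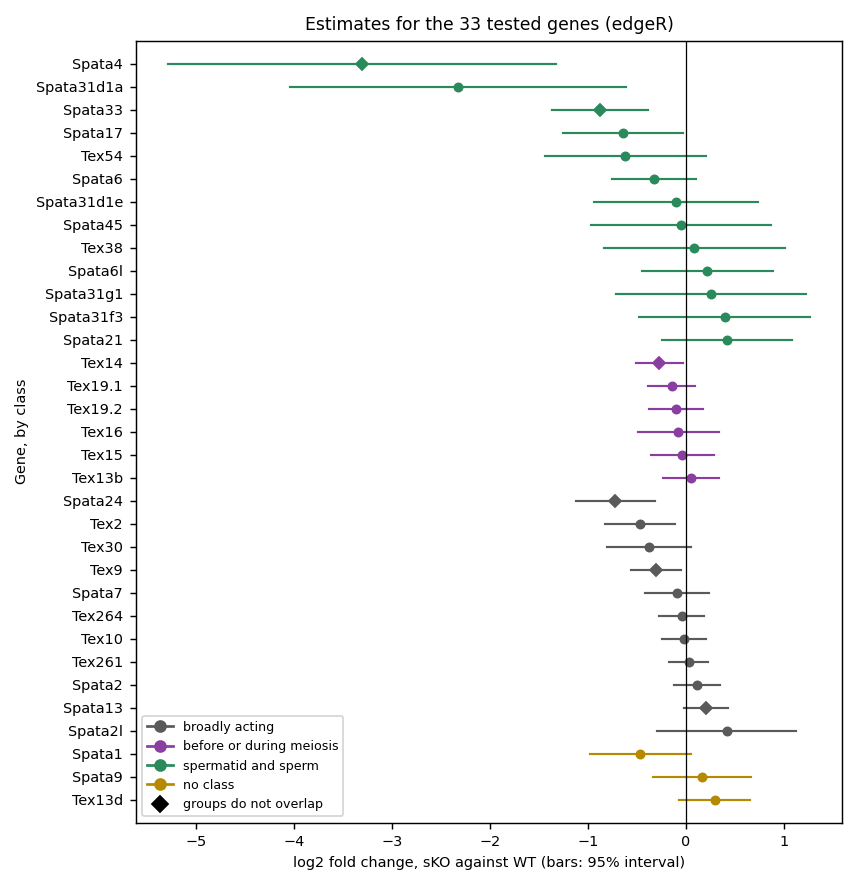
Log2 fold change of sKO against WT for the 33 tested genes, grouped by class, with 95% intervals from the edgeR fit; diamonds mark genes whose groups do not overlap. Spata4 (-3.31) and Spata31d1a (-2.33) stand apart from the rest, and the intervals of the 6 genes that act before or during meiosis lie between -0.51 and 0.34.

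Genes that act in germ cells before or during meiosis differed little. Of 6 members 5 had estimates below 0, 1 was lower at an unadjusted p under 0.05 and 0 were called, with a median of -0.09. The class summed to 571 to 666 CPM in WT and 538 to 655 CPM in sKO (exact two-sided permutation p = 0.4).

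Tex14, the bridge component, had 132.7, 114.4 and 115.1 CPM in WT and 94.1, 92.2 and 113.6 CPM in sKO. The groups did not overlap, but sKO library 3 lay directly under WT library 2. The log2 fold change of -0.27 (SE 0.11, 95% interval -0.51 to -0.03) did not pass the test (edgeR adjusted p = 0.296). The 6 bridge and cytokinesis partners had a median of -0.20 with all estimates below 0 and 0 called, from -0.38 for Rbm44, a germ cell bridge protein, to -0.01 for Kif23, the kinesin of the midbody.

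Tex15, the gene of transposon methylation, had nearly equal group means. Its libraries held 276, 207 and 264 CPM in WT and 222, 211 and 294 CPM in sKO, so that the highest and the lowest library were an sKO and a WT library. The log2 fold change was -0.04 (SE 0.15, 95% interval -0.36 to 0.28, edgeR adjusted p = 0.934), and its sign turned in 5 of 12 alternative fits. Of 7 genes of transposon methylation and its piRNA supply, Mael and Pld6, which act in piRNA production, had estimates of -0.50 and -0.52 (edgeR adjusted p = 0.134 and 0.183). Piwil4, Spocd1, Dnmt3c and Morc1, which act with TEX15 in silencing transposons, had estimates from 0.11 to 0.26, and Dnmt3l had -0.08. The list had 2 members lower at an unadjusted p under 0.05 and a median of 0.11.

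Tex19.1 and Tex19.2, neighbouring and similar genes whose products restrain LINE-1 retrotransposons, gave near parallel values. Tex19.1 had 68.2, 80.5 and 73.3 CPM in WT and 71.1, 70.7 and 59.2 CPM in sKO (log2 fold change -0.14, 95% interval -0.39 to 0.10). Tex19.2 had 58.3, 71.6 and 56.4 CPM in WT and 60.8, 62.4 and 50.3 CPM in sKO (log2 fold change -0.10, 95% interval -0.38 to 0.17). Both were highest in WT library 2 and lowest in sKO library 3, an order unlike that of the sperm class, and reads shared between them cannot be assigned with certainty.

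Of the 3 members on the X chromosome (RefSeq, GRCm38), Tex16 and Tex13b also stood close to 0. Tex16 had 45.6, 30.9 and 44.0 CPM in WT and 32.7, 33.1 and 48.3 CPM in sKO (log2 fold change -0.08). Tex13b had an estimate of 0.05 (95% interval -0.23 to 0.34), and Tex13d had 0.29 (95% interval -0.07 to 0.66) with 12.8, 13.5 and 16.3 CPM in WT and 17.2, 14.7 and 20.2 CPM in sKO. No edgeR adjusted p of the 3 was below 0.481.

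**Figure D4:**
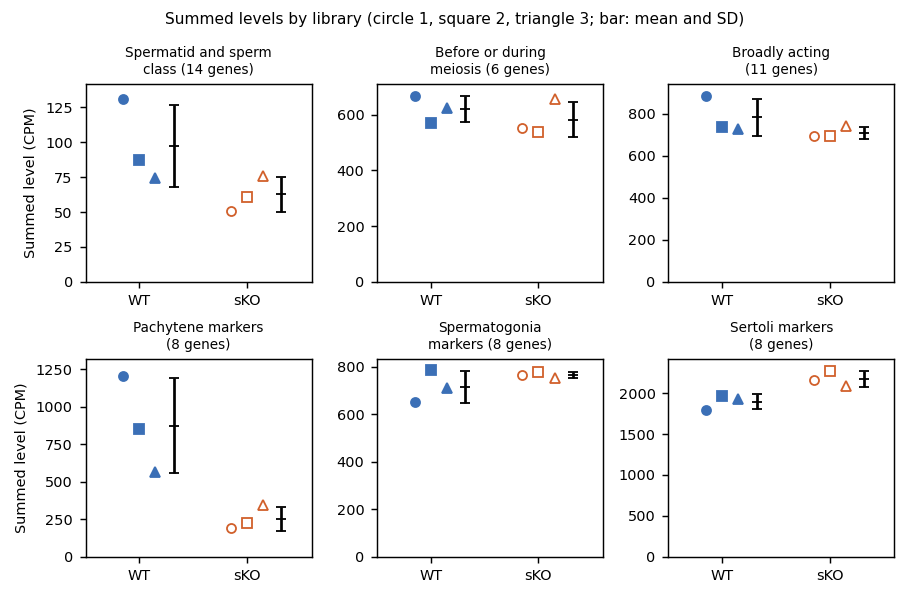
Summed level (CPM) in each library of 3 classes of the named genes and of 3 marker lists; symbols are libraries, the bar is the group mean with its SD (n = 3). The pachytene markers separate the groups (568 to 1202 CPM in WT against 191 to 343 CPM in sKO). So do the Sertoli markers, in the other direction (1793 to 1963 against 2083 to 2274 CPM). The 3 classes and the spermatogonia markers overlap.

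The class listed as broadly acting had 11 members, with 7 estimates below 0 and a median of -0.04. Of these members 3 were lower at an unadjusted p under 0.05 and 0 were called. Membership was set by a list and not by levels in other tissues, which were not measured. Spata24 had 27.4, 21.6 and 16.5 CPM in WT and 13.3, 12.4 and 14.0 CPM in sKO. As for Spata33, the sKO libraries were tightly spaced below a WT group that ran down from library 1. The log2 fold change was -0.72 (SE 0.18, 95% interval -1.12 to -0.32, edgeR adjusted p = 0.0855; DESeq2 adjusted p = 0.0106), and it was called without WT library 3 (-0.88, edgeR adjusted p = 0.0259) and stood at -0.52 without WT library 1 (edgeR adjusted p = 0.252).

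Tex2, a lipid transfer protein of endoplasmic reticulum contact sites, had 103, 80.4 and 68.1 CPM in WT and 57.9, 51.6 and 72.0 CPM in sKO. Only sKO library 3 exceeded a WT library, and without it the estimate moved from -0.47 (edgeR adjusted p = 0.224) to -0.65 (edgeR adjusted p = 0.0495). Without WT library 1 it was -0.29 (edgeR adjusted p = 0.506), and without both libraries numbered 1 it was -0.28 (edgeR adjusted p = 0.722). Tex9 had 68.1, 52.3 and 56.2 CPM in WT and 45.9, 47.9 and 49.3 CPM in sKO, without overlap (log2 fold change -0.30, SE 0.12, edgeR adjusted p = 0.267). Tex9 overlaps Mns1, a gene of meiotic and ciliated cells, in RefSeq, and Mns1 averaged 70.4 ± 8.71 CPM in WT against 62.04 ± 2.81 CPM in sKO (SD, n = 3 each); reads in the shared stretch cannot be told apart if strand was not counted. Tex30 had 251, 148 and 169 CPM in WT and 130, 136 and 171 CPM in sKO (log2 fold change -0.38, edgeR adjusted p = 0.438), with WT library 1 alone well above the other 5.

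The other genes of the class had estimates from -0.10 (Spata7) to 0.42 (Spata2l), and each of their 95% intervals held 0. Tex10, a subunit of the rixosome that processes ribosomal RNA, had 149, 118 and 132 CPM in WT and 126, 131 and 136 CPM in sKO (log2 fold change -0.02, 95% interval -0.24 to 0.20). Its 6 rixosome partners had a median of 0.02, from -0.11 for Mdn1 to 0.13 for Las1l. A further 4 genes of ribosome maturation, partners of the ATPases once named Spata5 and Spata5l1, had a median of -0.02, and Airim, with the smallest p of them, had -0.20 (edgeR adjusted p = 0.462). Tex261, an adaptor for export from the endoplasmic reticulum, and Tex264, a receptor for its autophagy, had log2 fold changes of 0.03 (95% interval -0.17 to 0.23) and -0.04 (95% interval -0.27 to 0.19). Spata7, a protein of the photoreceptor connecting cilium, had -0.10 (95% interval -0.42 to 0.23).

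Spata13, an exchange factor for the GTPases RAC and CDC42, was the single member higher in every sKO library than in any WT library. It had 47.9, 55.1 and 53.2 CPM in WT and 64.9, 57.5 and 57.5 CPM in sKO (log2 fold change 0.20, 95% interval -0.02 to 0.43, edgeR adjusted p = 0.429). Spata2, the adaptor that joins the deubiquitinase CYLD to the ubiquitin ligase complex LUBAC, had an estimate of 0.11 (95% interval -0.12 to 0.35) and its paralog Spata2l had 0.42 (95% interval -0.29 to 1.13). The 5 genes of CYLD, LUBAC and OTULIN had estimates from -0.15 to 0.12 and 0 were called. Spata2l overlaps Cdk10 in RefSeq, which averaged 67.6 ± 3.30 CPM in WT against 67.9 ± 3.48 CPM in sKO (SD, n = 3 each). Spata17, Spata1, Tex10 and Spata2 overlap Gpatch2, Ctbs, Invs and Rnf114 there. As for Tex9, reads in the shared stretches cannot be told apart if strand was not counted.

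The last 4 members have no class. Spata1 had 26.1, 19.3 and 18.2 CPM in WT and 10.8, 14.4 and 20.8 CPM in sKO, with sKO library 3 above the lower pair of WT libraries (log2 fold change -0.46, 95% interval -0.98 to 0.05, edgeR adjusted p = 0.428). Spata9 had an estimate of 0.16 (95% interval -0.33 to 0.66). Tex26 did not pass the filter on low counts, with 21, 14 and 7 counts in WT and 8, 7 and 10 in sKO, and Tex13d was given with the genes of the X chromosome.

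Across the members the libraries of a group were not evenly placed. WT library 1 was the highest WT library for 20 of the 33 tested genes (60.6%), against 38.6% of all genes tested. Likewise sKO library 3 was the highest sKO library for 21 of the 33 (63.6%), against 38.5% of all genes. The lowest estimates shrank without WT library 1 and grew without sKO library 3, as the plot of left-out libraries shows. The median of the tested members was 0.01 without WT library 1, with 15 of 33 estimates below 0. Without both libraries numbered 1, of which sKO library 1 held the epididymal transcripts, it was 0.00085, with 0 members called.

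**Figure D5:**
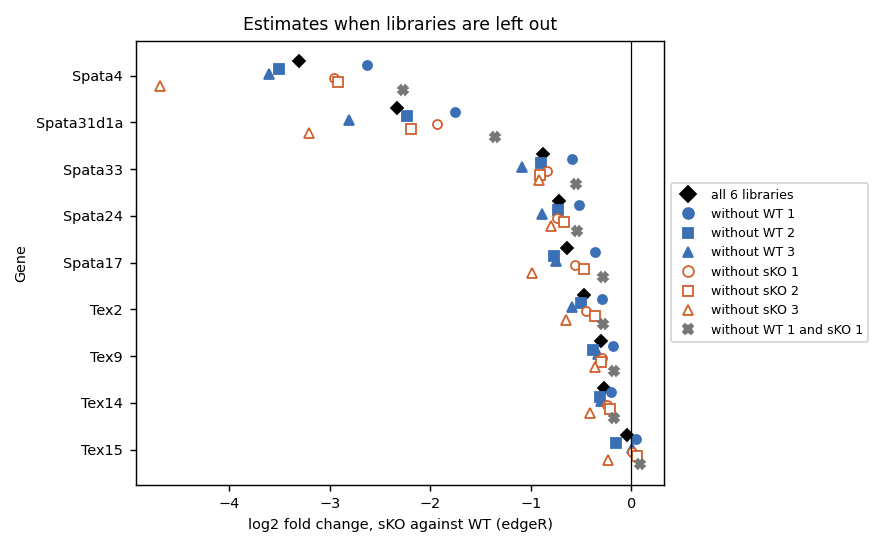
Log2 fold change of sKO against WT for 9 of the genes with all 6 libraries (black diamonds), without each library in turn and without both libraries numbered 1. Spata4 moves between -4.69 and -2.27 and stays below 0 throughout, and Tex15 moves from one side of 0 to the other.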

How the data were processed

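Whole-testis RNA sequencing of 3 WT and 3 sKO samples was used. The authors deposited 1 table of read counts by gene symbol, not normalized; per the submitters' processing notes, Trim Galore, HISAT2, featureCounts and build mm39 were used, without versions, annotation or strand setting. Columns headed con and scKO were matched to WT and sKO samples by replicate number. Counts were fitted with edgeR 4.0.16 in R 4.3.3 (filterByExpr with its minimum count of 10, TMM scaling, robust quasi-likelihood F test, no covariates). Benjamini-Hochberg adjustment covered the 18860 genes tested, and an adjusted p under 0.05 is a call. CPM use TMM-scaled library sizes, SE come from the F statistic, and 95% intervals use the fit's degrees of freedom. DESeq2 1.42.0, limma-voom (limma 3.58.1), RLE scaling, no filter, a replicate block and left-out libraries were alternatives. The scripts were tested on simulated data. No 2 libraries of a group were within sampling noise of each other (chi-square over degrees of freedom, 4.60 to 22.8).

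Any of the 35 genes could be named, with full statistics for up to 6 of the smallest p and up to 4 of the highest level in each class, and for partner lists the smallest p. The genes, classes, partner and marker lists, motifs and alternatives were chosen with earlier results of these data known. RefSeq tables of GRCm38 matched 32 of the 35 symbols and supplied chromosomes, overlaps and promoter sequences; the counts use another build, so the only coordinates given are those of the promoter windows, on GRCm38. CPM are not per transcript length, so levels are not compared between genes.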

Additional observations from a re-analysis of the deposited data

How the results depend on the processing

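With all 6 libraries edgeR called 0 of the members lower and 0 higher, and 240 lower and 6 higher genes in all. DESeq2 called 4 members lower (Spata24, Spata33, Spata4 and Tex22), with 716 lower (3.44%) and 56 higher (0.269%) over all genes, and 4 partner genes. Without the low-count filter 6 members were called lower (Spata24, Spata31d1a, Spata33, Tex2, Tex22 and Tex30), and 6 partner genes. Over all 35085 genes tested in that fit 992 were lower (2.83%) and 154 higher (0.439%). Limma-voom called 0 members, with 15 lower and 0 higher over all genes, and RLE scaling 0 members, with 252 and 6. Leaving out 1 library at a time gave 0 to 4 members called lower (4 without WT replicate 3, 2 without sKO replicate 3) and 0 to 4 partner genes. Over all genes it gave 0 to 624 lower and 0 to 31 higher. Without WT replicate 3 the share of all genes called lower was 2.58%, and without sKO replicate 3 it was 3.23%. The median of the tested members ran from -0.19 (without sKO replicate 3) to 0.012 (without WT replicate 1). For 5 to 12 members the sKO libraries all lay lower, and for 2 to 4 all higher. Among all genes 12.9% to 20.8% and 11.4% to 16.7% did so. Without both samples numbered 1 there were 0 members and 1 partner gene (Gk2) called lower, 155 lower and 5 higher over all genes, a median of 0.00085, and 6 lower (18.2%) and 7 higher (21.2%) members without overlap, beside 19.4% and 18.4% of all genes. 0 members were called higher in any of these fits. Rif1 ranged from -1.30 to -0.97 with 1 library left out, and lost its call without WT replicate 2 (edgeR adjusted p = 0.137), sKO replicate 1 (0.0618) and sKO replicate 2 (0.120). In each of these fits edgeR called 0 genes lower and 0 higher over the whole table, so that no member could be called either. The cause was not tested.

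The replicate block gave 0 members called, and 21 lower and 0 higher over all genes. The numbers were not taken to pair the samples: deviations from the group means of same-numbered samples correlated at -0.34, 0.12 and -0.28, and WT sample 1 correlated best with sKO sample 3 (0.45), not with its own number.

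Estimates near 0 changed sign. Without both samples numbered 1 these were Spata31d1e (0.49), Spata7 (0.0141), Tex16 (0.11), Spata45 (0.33), Tex15 (0.0881), Tex10 (0.081), Tex261 (-0.0442). Tex38 changed to -0.0541 with limma-voom and -0.00996 with the replicate block. With 1 library left out the ranges were -0.17 to 0.0116 for Tex19.2, -0.37 to 0.26 for Spata31d1e, -0.19 to 0.0072 for Spata7, -0.32 to 0.0266 for Tex16, -0.24 to 0.20 for Spata45, -0.0898 to 0.00701 for Tex264, -0.23 to 0.0529 for Tex15, -0.0984 to 0.0693 for Tex10, -0.0337 to 0.0559 for Tex261, -0.11 to 0.16 for Tex13b, -0.32 to 0.43 for Tex38, -0.0199 to 0.48 for Spata31g1. Depth limits the members of few reads: Tex22 and Tex26 did not pass the filter.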

Other observations

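Among the 41 symbols under the summed count of 60, Spata18, which codes for a mitochondrial quality control protein, had counts of 17, 15 and 8 in the WT libraries and 5, 6 and 6 in the sKO libraries, without overlap. Afg2a and Afg2b, the current symbols of the genes once named Spata5 and Spata5l1, lie outside the name pattern and were not described.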
